A study of Homo sapiens with 8 samples.

Results

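Hedgehog pathway genes were followed here through the H3K27Ac enhancer landscape of 4 medulloblastoma lines. The members were 9 of 19962 protein-coding genes: the receptors and surface proteins PTCH1, BOC and HHIP, the signal transducer SMO, the inhibitor SUFU, the transcription factors GLI1, GLI2 and GLI3, and SFRP1. A region was given to a gene when it touched the annotated gene, or when any of it fell inside a window of 50 kb on either side of the 5' end. By this rule the members held 17 of 26072 regions in MB002, 19 of 26317 in D425, 17 of 15286 in HD-MB03 and 15 of 20875 in UW228.

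The study asked how super-enhancers (SEs) are laid out in Group 3 medulloblastoma (G3-MB), and each line has 1 H3K27Ac ChIP-seq library and 1 input library. MB002, D425 and HD-MB03 carry the label G3-MB, and UW228 carries the label of the SHH subtype. Per the study's methods, MB002 and HD-MB03 grew in a tumor stem medium, and D425 and UW228 grew in DMEM with serum. No line was treated, and each group is a set of established human lines rather than tumors.

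There were no replicates. With 1 line labelled SHH against 3 G3-MB lines, an exact permutation of the labels cannot give a p below 0.25, so no test was run, and the orders given here are descriptions of these libraries. The tables of the 3 G3-MB lines are dated 2020 and that of UW228 is dated 2021, so the label, the line and the time of processing cannot be told apart. Read counts are not given, so the depth behind each value is unknown.

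Hedgehog ligands bind the receptor PTCH1 and release SMO from its inhibition, and SMO then acts at the primary cilium to turn GLI proteins from repressors into activators. SUFU holds GLI proteins in check. GLI1, PTCH1 and HHIP are themselves transcribed in response to the pathway, which in the cerebellum drives granule neuron precursors to divide and which is activated by mutation in the SHH subtype of medulloblastoma. H3K27Ac is an acetylation of histone H3 found at active enhancers and promoters, and long clusters of enhancers with the highest signal are called SEs, the rest being typical enhancers (TEs).

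PTCH1 showed the widest spread of signal among the members with a region in every line, and sequence from inside it is shown for that reason. All sequences are of GRCh38, in lower case, with each match to the GLI motif GACCACCCA (or TGGGTGGTC, the same letters on the opposite strand) in capitals. The window upstream of an internal PTCH1 start (chr9:95509267-95509516, minus strand, intronic in the longer transcripts) comes from RefSeq, build GRCh38.p14, and holds 1 match. A further match lies 4.54 kb downstream of the 5' end of PTCH1, in an intron (chr9:95512474-95512562, minus strand). Regions of MB002 and HD-MB03 covered both matches, and regions of D425 and UW228 covered neither.
PTCH1 internal promoter: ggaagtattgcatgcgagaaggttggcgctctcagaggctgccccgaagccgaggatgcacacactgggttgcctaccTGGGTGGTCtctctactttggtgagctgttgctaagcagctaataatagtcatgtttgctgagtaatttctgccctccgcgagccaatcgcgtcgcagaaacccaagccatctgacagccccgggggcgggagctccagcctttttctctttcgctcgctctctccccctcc
PTCH1 intronic match: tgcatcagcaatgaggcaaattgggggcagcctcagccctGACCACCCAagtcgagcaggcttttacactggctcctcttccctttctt

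The stretch of PTCH1 covered by a region in all 4 lines was the whole of the UW228 region (836 bp), and its central 200 bases (chr9:95511677-95511876, plus strand, intronic) held no match and 3 CpG dinucleotides. A stretch upstream of GLI1 was also covered in all 4 lines. It lies in an intron of R3HDM2, and its central 200 bases (chr12:57430436-57430635, plus strand) held no match and 21 CpG dinucleotides. The called regions of GLI2 held 1 match, in a region of MB002 over the 5' end (chr2:120746115-120746203, minus strand, intronic).
PTCH1 shared stretch: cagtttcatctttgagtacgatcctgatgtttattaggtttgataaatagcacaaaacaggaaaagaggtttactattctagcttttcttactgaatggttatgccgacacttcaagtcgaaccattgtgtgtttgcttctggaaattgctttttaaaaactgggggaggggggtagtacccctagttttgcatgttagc
GLI1 upstream shared stretch: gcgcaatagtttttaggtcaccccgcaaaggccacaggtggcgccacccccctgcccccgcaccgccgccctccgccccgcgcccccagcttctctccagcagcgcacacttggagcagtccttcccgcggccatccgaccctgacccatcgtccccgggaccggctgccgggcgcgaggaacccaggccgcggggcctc
GLI2 intronic match: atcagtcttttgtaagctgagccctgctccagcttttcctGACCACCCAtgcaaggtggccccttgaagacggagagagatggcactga

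The signal of a region is the H3K27Ac value minus the input value, set to 0 where the input was higher. Both values start as reads per bp scaled by library size, and each was then multiplied by how many bp the region spans. Regions are ranked by this signal, with 1 as the highest. By the authors' description, peaks near annotated start sites were left out before neighboring peaks were stitched, so a gene without a region may still carry H3K27Ac at its promoter. Some regions do span a start site, among them a region of 1 peak over that of GLI1 in D425, so this step cannot be taken as complete. Relative input density, the input per bp over the median of the line, ran from 0.223 to 1.88 over all member regions. Over all regions of D425, the line with the widest spread, the percentiles 5 and 95 were 0.289 and 2.09.

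At least 1 region was found for 7 of the 9 members in MB002, where the share over all protein-coding genes was 70.9%. In D425 it was found for 5 members (73.1% of all genes), in HD-MB03 for 7 (58.4%) and in UW228 for 8 (62.0%). An SE was assigned to 3 members in HD-MB03 (GLI1, PTCH1 and SUFU), 1 in UW228 (SUFU) and 0 in MB002 and D425, where the shares over all genes were 3.12%, 5.00%, 3.36% and 4.35%. HD-MB03 therefore held most of the SEs assigned to the 9 members although it had the fewest SEs of the 4 lines, 302 against 363 in MB002, 431 in D425 and 753 in UW228. With each region given only to its closest gene, PTCH1 in HD-MB03 was the only member that held an SE in any line. The summed signal of the member regions made up 34.8 of every 10000 units of region signal in HD-MB03, 9.79 in MB002, 7.31 in D425 and 9.12 in UW228. The 9 genes are long, with a median of 76.5 kb against 27.5 kb over all genes, and a long gene has more room for a region.

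**Figure D1:**
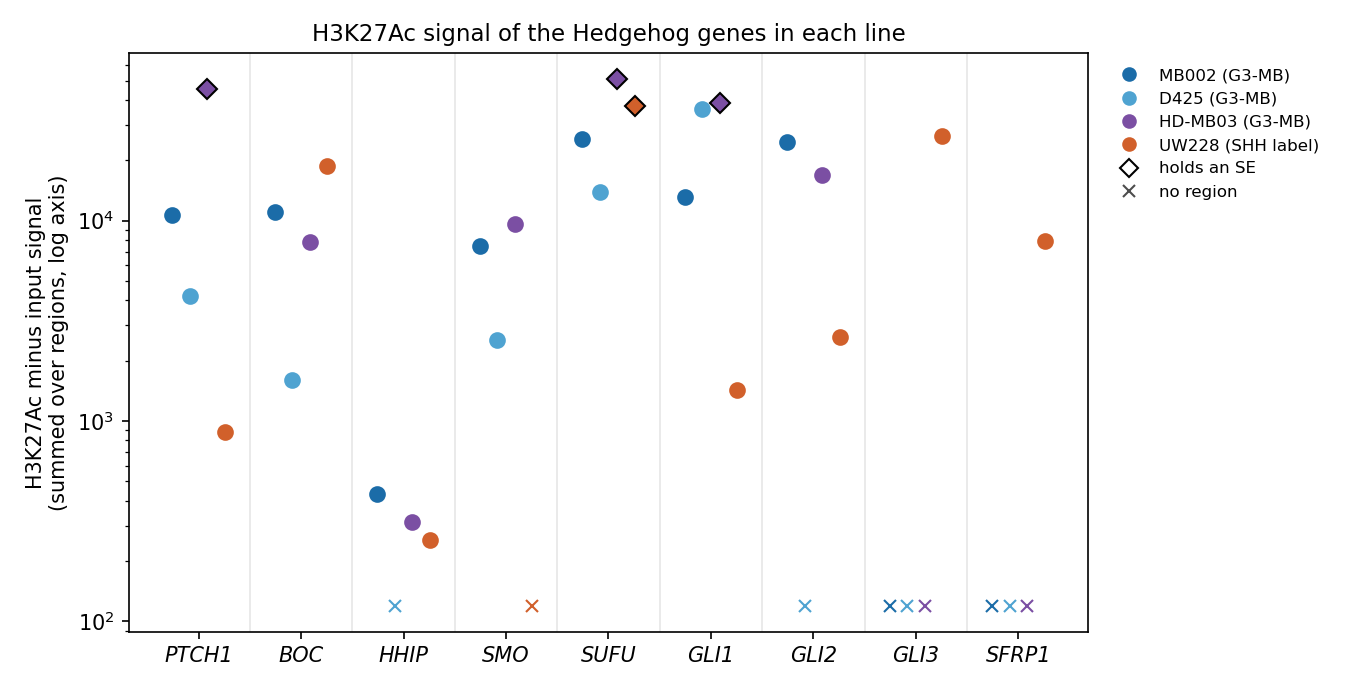
Summed H3K27Ac minus input signal (log axis) of the regions of each Hedgehog gene, with 1 point per line, diamonds for genes that hold an SE and crosses for genes without a region. UW228 is lowest for PTCH1 (879) and GLI1 (1432), has no region at SMO, and is the only one of the 4 lines with regions at GLI3 (26536) and SFRP1 (7879).

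PTCH1, the receptor that keeps SMO inactive, showed the widest spread of the 4 members with a region in every line. Its regions summed to a signal of 10644 (MB002), 4188 (D425), 45433 (HD-MB03) and 879 (UW228). UW228 was thus below all 3 G3-MB lines, and HD-MB03 was the highest of the 4. The covered lengths were 6.20 kb, 2.46 kb, 19.8 kb and 0.836 kb, and the mean signal per bp was 1.72, 1.70, 2.29 and 1.05, so the order at the ends was the same per bp with a smaller distance. On the log2 scale the ratio of UW228 to the G3-MB mean (20088 ± 22185, SD, n = 3 lines) was -4.51 for the sum and -0.86 for the signal per bp. Without HD-MB03 it was -3.08 for the sum, and UW228 stayed below the other 2 lines.

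The PTCH1 SE of HD-MB03 ranked 61 of 15286 regions. It spanned chr9:95493353-95512845, from 4.21 kb downstream of the 5' end into the gene, with a relative input density of 1.19. In MB002 the same stretch was called as 2 separate TEs of 4.25 kb and 1.95 kb, at ranks 2922 and 6462. D425 likewise had 2 short TEs there, the better at rank 5322, and a further short region 35.9 kb upstream. In UW228 a lone TE of 0.836 kb at rank 13373 remained, at a relative input density of 0.508, and it lay within the interval covered in the other lines. PTCH1 had the closest start site to the best region in every line.

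BOC, a co-receptor that helps present the ligand, had a signal of 11056 (MB002), 1594 (D425), 7816 (HD-MB03) and 18806 (UW228). UW228 was the highest, but less than 2-fold above MB002 (1.70-fold). The lengths were 54.2 kb, 13.9 kb, 31.8 kb and 57.6 kb, and the signal per bp was 0.204, 0.115, 0.246 and 0.326. Divided by the median region signal of each line, BOC stood at 11.1 in UW228 and 12.4 in MB002, so the order of these 2 lines depended on the scaling. The log2 ratio to the G3-MB mean (6822 ± 4809, SD, n = 3 lines) was 1.46, close to the spread of 1.49 between the G3-MB lines on the log2 scale.

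Each BOC region began inside the gene and had BOC as its closest gene, and that of UW228 ran slightly past the 3' end. The best one ranked 1150 in UW228, 1926 in MB002, 2302 in HD-MB03 and 10660 in D425, and none was an SE. In MB002 and UW228 a single stitched region of 10 and 9 peaks ran over most of the gene, whereas D425 had 3 separate regions, of which the longest had a signal per bp of only 0.0293.

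HHIP, a surface protein that binds and sequesters Hedgehog ligands and is a pathway target, was close to bare. Its signal was 431 from 3 regions in MB002, 313 from 1 region in HD-MB03 and 255 from 1 region in UW228, and D425 had no region. These regions were under 1 kb each and none overlapped another, with best ranks of 19535, 10961 and 17902. UW228 lay within the range of the G3-MB lines. This place was not stable, as UW228 was below the remaining G3-MB lines without D425 and above all of them after division by relative input density. The log2 ratio to the G3-MB mean, with D425 counted as 0, was 0.04. It was -1.40 with a window of 100 kb and 1.51 after division by relative input density.

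SMO, the transducer, had a signal of 7490 (MB002), 2528 (D425) and 9622 (HD-MB03), and no region in UW228. UW228 was therefore below all 3 G3-MB lines. The best regions, at ranks 2995, 9330 and 1266, lay 28.6 to 33.7 kb downstream of the 5' end, beyond the end of the gene and closest to AHCYL2. The only region inside SMO was one of 2.21 kb in D425, with a signal of 1071. With the window narrowed to 25 kb, or with overlap of the gene alone, SMO was no longer below all 3 G3-MB lines in UW228.

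SUFU, the inhibitor of the GLI proteins, had a signal of 25408 (MB002), 13928 (D425), 50698 (HD-MB03) and 37176 (UW228). UW228 lay within the G3-MB range, with a log2 ratio to the G3-MB mean (30011 ± 18812, SD, n = 3 lines) of 0.31. The sign of this ratio depended on the scaling, with -0.71 after division by the median region signal, -0.48 by the total region signal and 1.29 by relative input density, and it was -0.23 with a window of 100 kb. An SE covered the 3' part of SUFU and ran on past its end in HD-MB03 (63.2 kb, rank 55) and in UW228 (52.8 kb, rank 410). MB002 and D425 had TEs in this stretch, at ranks 1754 and 3142. The mean signal per bp of the regions there was nearly level, at 0.657 (MB002), 0.644 (D425), 0.750 (HD-MB03) and 0.659 (UW228). The covered length went from 15310 to 63169 bp, and only 4964 of 85044 bp (5.84%) were covered in every line. These means are thus over different intervals, and the signal over the same DNA was not compared.

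The start site closest to the centre of both SUFU SEs was that of TRIM8, which lies beyond the 3' end of SUFU. With each region given only to its closest gene, SUFU held no SE in either line and was above all 3 G3-MB lines in UW228. The log2 ratio was then 3.70 in place of 0.31. That ratio rested on a region of 1.4 kb in UW228 (signal 885) and a region of 0.369 kb in MB002 (204). D425 and HD-MB03, without a region, added nothing to the mean. By the 50 kb rule and without HD-MB03, SUFU in UW228 was likewise above the 2 remaining G3-MB lines. The SE of UW228 had a relative input density of 0.499, and that of HD-MB03 1.05. Upstream of SUFU, MB002 also had a TE at rank 1608 with a signal of 12562, closest to MFSD13A, where the other lines had 2203 (D425), 823 (HD-MB03) and 1500 (UW228).

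**Figure D2:**
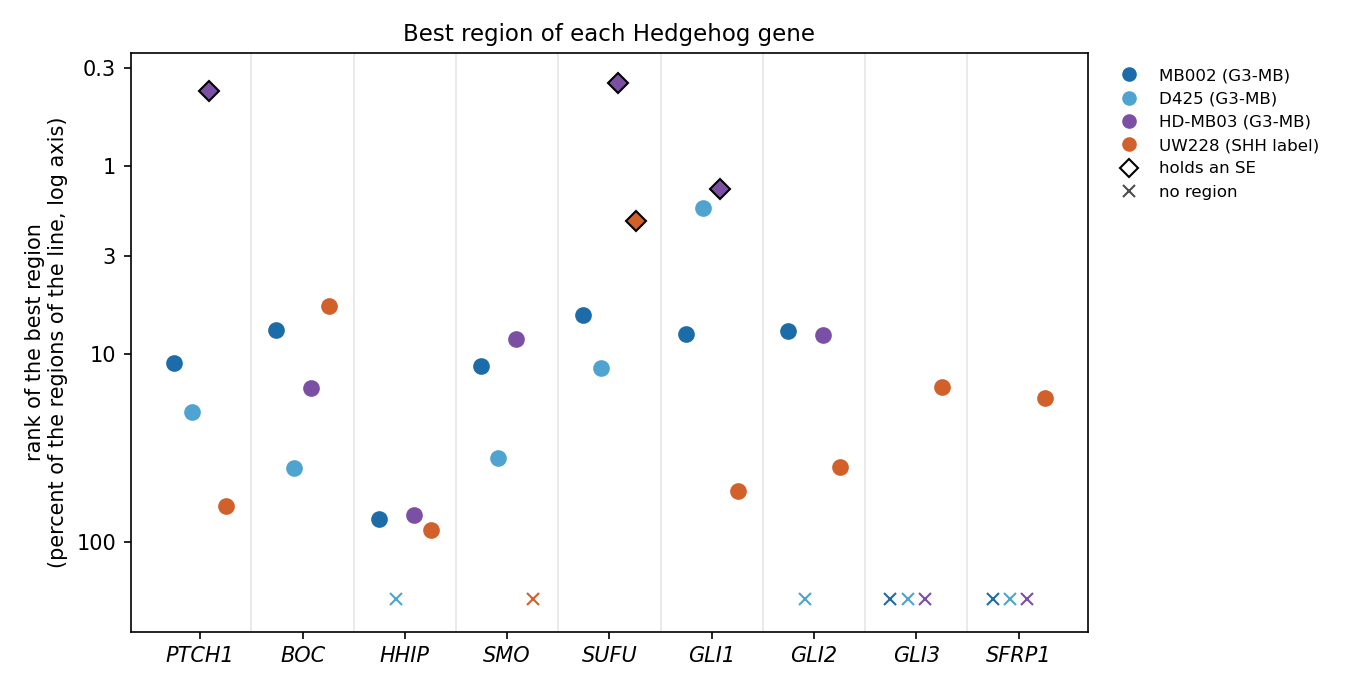
Rank of the best region of each Hedgehog gene as a percent of all regions of the line (log axis, best at the top), with 1 point per line, diamonds for SEs and crosses for genes without a region. The SEs of HD-MB03 at SUFU (0.360%), PTCH1 (0.399%) and GLI1 (1.33%) lie at the top, and PTCH1 (64.1%) and GLI1 (53.7%) of UW228 lie in the lower ranks.

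GLI1, the activator that is itself induced by the pathway, had a signal of 13119 (MB002), 36043 (D425), 38490 (HD-MB03) and 1432 (UW228). The 3 G3-MB lines all lay above UW228, the lowest of them by 9.16-fold. With each region given only to its closest gene, GLI1 was no longer below all 3 in UW228. The covered lengths were 14.3 kb, 14.6 kb, 22.4 kb and 2.25 kb, and the signal per bp was 0.916, 2.48, 1.72 and 0.638. The log2 ratio of UW228 to the G3-MB mean (29218 ± 13995, SD, n = 3 lines) was -4.35 for the sum and -1.42 for the signal per bp. After division by relative input density, which was 0.502 in the UW228 region, it was -3.33, and it was -3.40 with regions over the start site of GLI1 left out. Divided by the median region signal it was -5.44.

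The GLI1 SE of HD-MB03 (chr12:57444900-57464439) ranked 203, with a signal of 27747 over 19.5 kb. It overlapped the start site of GLI1, and the start site closest to its centre was that of INHBE. Without input subtraction it was no longer called an SE. GLI1 also held no SE with each region given only to its closest gene, or with regions over its own start site left out. D425 had a TE of 7.71 kb just upstream of GLI1, also closest to INHBE, at rank 437. Its signal of 26057 lay just under the SE cutoff of 26206 in that line, which had 431 SEs. MB002 had a TE over the start site at rank 2042, and UW228 had no region in this interval.

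What UW228 shared with the other lines at GLI1 was the R3HDM2 region, 28.1 kb upstream. The start site closest to it was that of R3HDM2 in every line, and no other region of UW228 was given to GLI1. This region was of like length in all 4 lines, from 2246 to 2668 bp. For D425, 2 regions (2223 and 189 bp) were summed. The values can thus be set side by side with little effect of length. The signal per bp was 0.986 (MB002), 1.89 (D425), 4.16 (HD-MB03) and 0.638 (UW228). UW228 was again the lowest and HD-MB03 the highest.

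GLI2, the main activator acting downstream of SMO, had a signal of 24708 in MB002 and 16885 in HD-MB03, no region in D425 and 2634 in UW228. The 2 lines grown in stem medium were the high ones and the 2 grown with serum were low or without a region, and the part of the medium in this was not tested. The log2 ratio of UW228 to the G3-MB mean (13864 ± 12628, SD, n = 3 lines) was -2.40 for the sum and 1.49 for the signal per bp, so its sign depended on the measure. D425, without a region, entered both means as 0. After division by relative input density the ratio of the sums was -0.29, and it was -1.68 without MB002. It was -2.98 without D425, -3.35 after division by the median region signal and -3.01 by the total region signal. The lengths were 65.5 kb in MB002, 73.5 kb in HD-MB03 and 4.63 kb in UW228, with 0.377, 0.230 and 0.569 of signal per bp.

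MB002 and HD-MB03 had regions over the same 3 loci inside GLI2, which began 57.4, 82.5 and 132 kb downstream of the 5' end in MB002. The strongest of these in HD-MB03 ranked 1211, and in MB002 a further region over the start site ranked 1962. The region of UW228, at rank 8326 and a relative input density of 0.267, lay 176 kb downstream and overlapped none of them.

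GLI3, which acts mostly as a repressor, had 6 regions in UW228 and no region in MB002, D425 or HD-MB03. The 6 regions summed to 26536 over 69.0 kb, or 0.384 per bp. They were spread from the start site to 266 kb downstream, all with GLI3 as the closest gene and with relative input densities from 1.03 to 1.51. The best 2 had signals of 8984 (rank 3108) and 7753 (rank 3616), and none was an SE.

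SFRP1, a secreted WNT antagonist that is used as a marker of the SHH subtype, also had a region in UW228 and in none of the G3-MB lines. It was a TE of 29980 bp that overlapped the 3' end of the gene and lay mostly beyond it. It had a signal of 7879, rank 3545 and a relative input density of 1.13. SFRP1 was its closest gene.

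**Figure D3:**
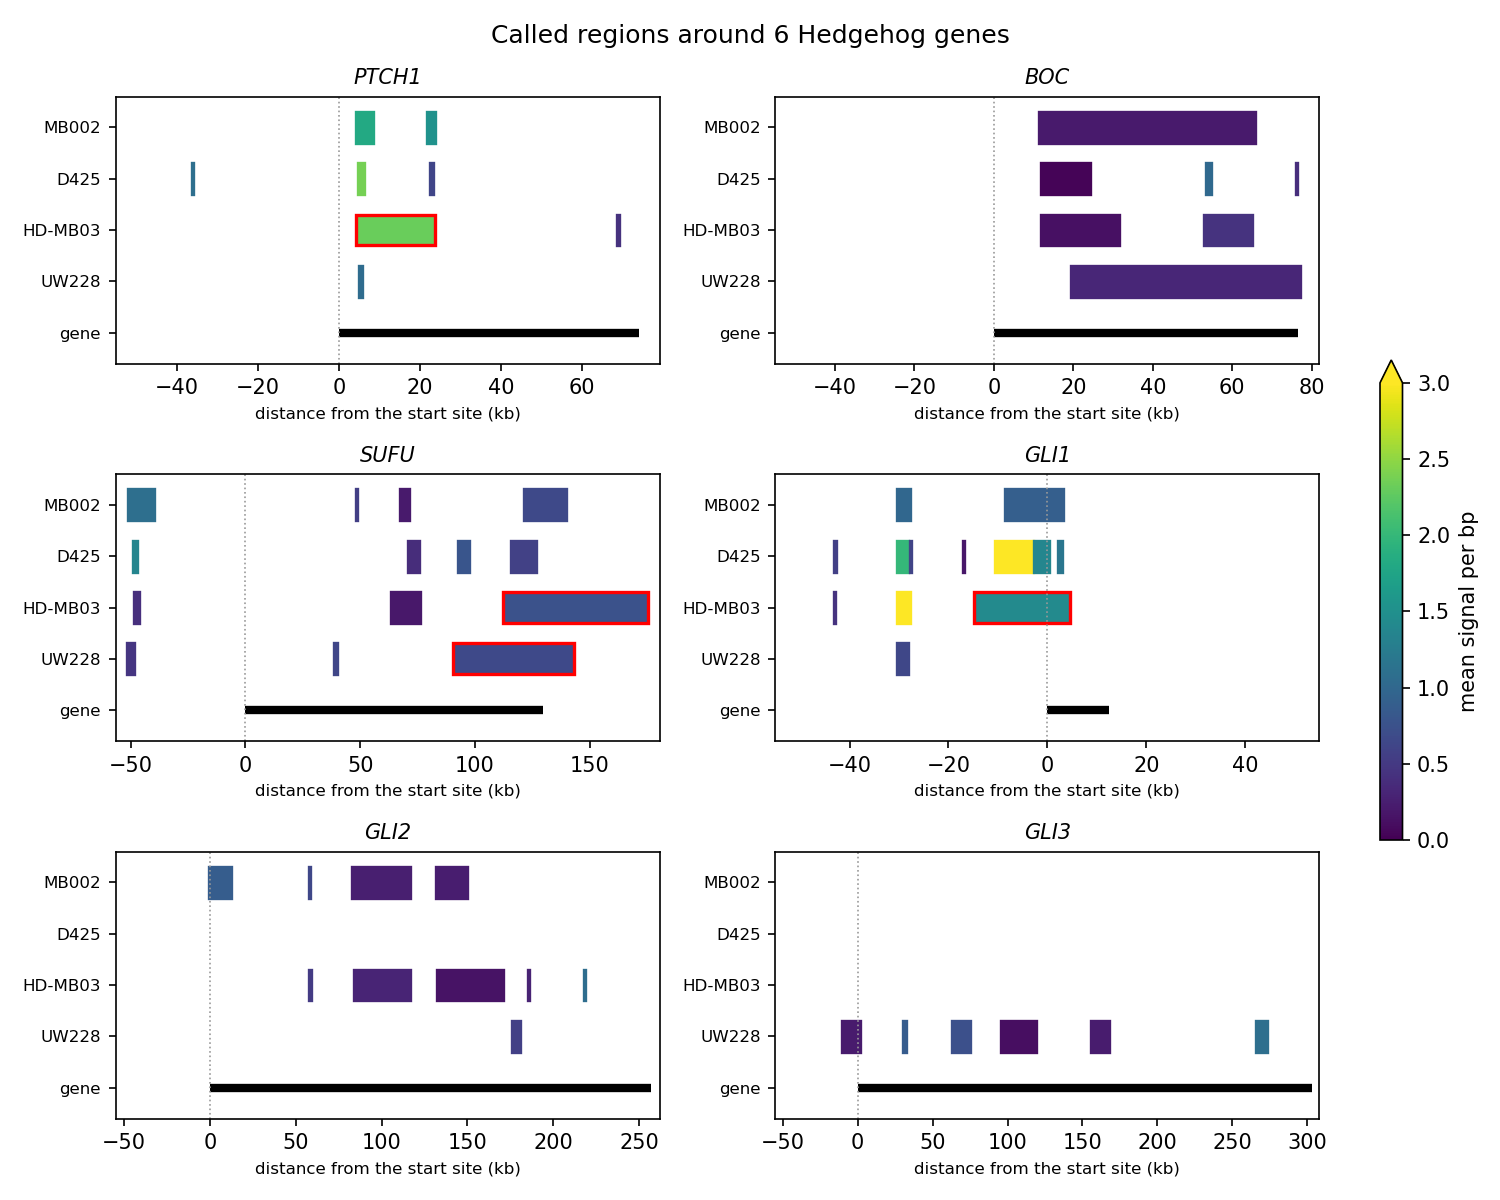
Called regions in each line by distance from the start site (kb, positive into the gene), colored by mean signal per bp, with SEs outlined in red, the gene as a black bar and outlines that widen the shortest regions slightly. At PTCH1 and GLI1 the SE of HD-MB03 covers 19.5 kb, UW228 has 1 short region at each, and GLI3 has regions in UW228 and in no other line.

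Set against the 3 G3-MB lines, UW228 was above all of them for 3 of 9 members (GLI3, BOC and SFRP1) and below all of them for 3 (PTCH1, SMO and GLI1). Over the 17765 genes with a region in any line, the shares were 28.9% above and 24.7% below, so the counts were close to the background. At a distance of at least 2-fold, 2 members were above (GLI3 and SFRP1) and 3 below, where the shares over all genes were 20.5% and 20.4%.

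The median signal of the 9 members was 10644 (MB002), 1594 (D425), 9622 (HD-MB03) and 2634 (UW228), against 1244, 1412, 379 and 774 over all genes. D425 was the line in which the members lay nearest to the other genes.

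The regions of all lines merged into 34 loci around the 9 members. Of these, 5 had a region in all 4 lines, 3 in 3 lines, 4 in 2 lines and 22 in 1 line. Of the 34 loci, 10 were found in UW228 alone, 6 of them at GLI3. The same split over all regions is not given here, so these counts describe the members only. The 5 loci common to all lines were the one upstream of GLI1, the intronic one of PTCH1, 2 at SUFU and the one of BOC. Of the 15 member regions of UW228, 5 (33.3%) overlapped a region of MB002, 5 one of D425 and 5 one of HD-MB03. Of these 15, 6 were at GLI3 and 3 at SUFU, so they are not independent of each other. Over all UW228 regions the shares were 24.7%, 30.0% and 18.7%.

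**Figure D4:**
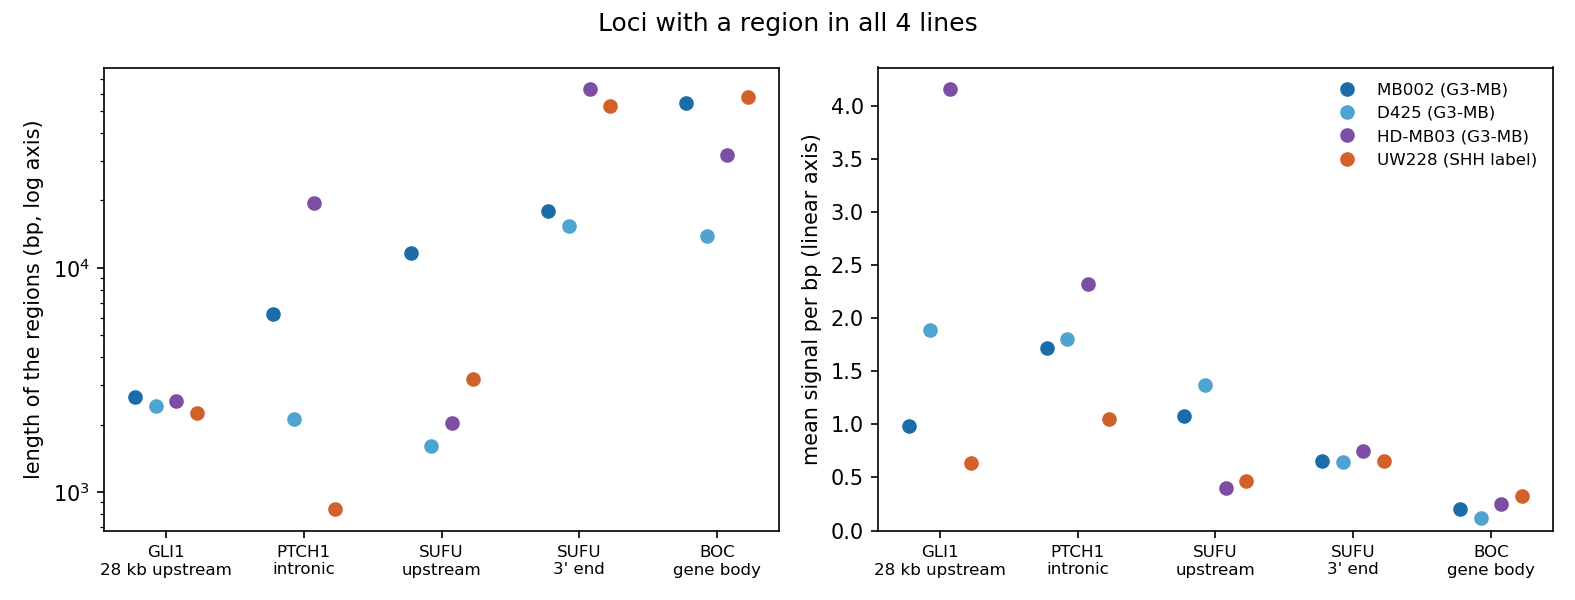
Length (bp, log axis, left) and mean signal per bp (linear axis, right) at the 5 loci with a region in all 4 lines, with 1 point per line. The locus upstream of GLI1 is closest to R3HDM2. Its lengths are alike, and its signal per bp runs from 0.638 in UW228 to 4.16 in HD-MB03. At the 3' end of SUFU the signal per bp is alike (0.644 to 0.750), but it is averaged over regions of different length and extent.

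The GLI motif shown in the PTCH1 sequences was counted on both strands in every region. Member regions held 4 matches in 192 kb in MB002, 0 in 60.6 kb in D425, 3 in 232 kb in HD-MB03 and 1 in 222 kb in UW228. That is 20.9, 0, 12.9 and 4.50 matches per Mb, beside 7.48, 7.86, 9.69 and 6.17 per Mb over all regions. The matches came from 5 sites, of which 2 were in PTCH1, 2 in regions of SUFU and 1 in GLI2. Both sites in regions of SUFU lay outside SUFU itself. The MB002 site was 42 kb upstream of its 5' end, within ACTR1A and MFSD13A. The site of HD-MB03 and UW228 was 141 kb downstream of that end, within TRIM8. With so few matches, rates of this kind move with a single site. Of 35116 RefSeq windows of 250 bases before a start, 70 (0.199%) held the motif. RefSeq windows were at hand for 6 of the 9 members (GLI2, PTCH1, SMO, SUFU, HHIP and BOC), and only that of the internal PTCH1 start had a match.

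Both label groups were checked against marker genes. Of 5 genes used for the SHH subtype, UW228 was above all G3-MB lines for 2, EYA1 (64029 against at most 5749) and SFRP1. The share was 28.9% of the genes with a region in any line. SFRP1 and HHIP of this list are also members, so the check is not independent of their values above. PDLIM3 was highest in HD-MB03 (44415, with an SE) and 11192 in UW228, HHIP was within the G3-MB range, and ATOH1 had no region in any line. The list had a region for 4 genes in UW228, 3 (MB002), 2 (D425) and 2 (HD-MB03). The shares over all genes were 62.0%, 70.9%, 73.1% and 58.4% in the same order. The summed signal of the list was 83355 in UW228, most of it from EYA1, against 14633 (MB002), 3465 (D425) and 44728 (HD-MB03). UW228 is called by its name here. Of 6 Group 3 genes, UW228 was below all G3-MB lines for 3 (IMPG2, NRL and EYS), beside 24.7% of the genes with a region in any line. NPR3 had regions in UW228 alone (25870), and MAB21L2 and GABRA5 lay within the G3-MB range. NRL had 7633 (MB002), 19046 (D425), 15566 (HD-MB03) and no region in UW228, with PCK2 closest to its best regions, and IMPG2 had a signal of 39334 (MB002), 18699 (D425), 33987 (HD-MB03) and 694 (UW228).

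Markers of other cell types also differed between the lines. For granule neuron genes, 2 of 7 had a region in UW228 (ZIC1 and MEIS1), against 5 (MB002), 5 (D425) and 6 (HD-MB03), where the shares over all genes were 62.0% in UW228, 70.9% (MB002), 73.1% (D425) and 58.4% (HD-MB03). Their summed signal was 15328 in UW228, 152082 (MB002), 94088 (D425) and 138278 (HD-MB03), and NEUROD1 and NHLH1 had regions in all 3 G3-MB lines and none in UW228. BARHL1 and ZIC2 had regions in 2 of the G3-MB lines each and none in UW228, and MEIS1 (13838) was the highest there. In the G3-MB lines the best regions of NEUROD1 were closest to CERKL, those of ZIC1 to ZIC4 and those of ZIC2 to ZIC5. Those of BARHL1, MEIS1 and NHLH1 were closest to the gene itself. For mesenchymal genes, a region was found for all 7 in UW228, and for 7 (MB002), 5 (D425) and 4 (HD-MB03) in the G3-MB lines. They summed to 247959 in UW228, against 120083 (MB002), 25824 (D425) and 64150 (HD-MB03), and 5 of the 7 were above all G3-MB lines in UW228, beside 28.9% of the genes with a region in any line. COL1A2 was the highest there (77281, rank 75), and COL1A2, COL3A1 and PRRX1 held SEs in UW228. None of the 7 held an SE in a G3-MB line. Of the granule neuron genes, an SE was held by 2 (MB002), 1 (D425), 1 (HD-MB03) and 0 (UW228). The shares of all genes with an SE were 3.36% (MB002), 4.35% (D425), 3.12% (HD-MB03) and 5.00% (UW228). PRRX1 lay within the G3-MB range (51555 in UW228 and 61882 in MB002), as did THY1 (2768 in UW228 and 18713 in HD-MB03). The part of these differences in the values of the Hedgehog genes was not tested. These are bulk libraries, in which fewer cells with the mark and less of the mark per cell cannot be told apart.

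Other genes of the pathway were taken by role. Of 37, at least 1 region was found for 25 (MB002), 27 (D425), 25 (HD-MB03) and 23 (UW228), beside 70.9%, 73.1%, 58.4% and 62.0% of all genes. An SE was assigned to 1, 1, 0 and 1 of them, beside 3.36%, 4.35%, 3.12% and 5.00% of all genes. UW228 was above all 3 G3-MB lines for 15 and below for 6, beside 28.9% and 24.7% of the genes with a region in any line. By at least 2-fold these counts were 11 and 5, beside 20.5% and 20.4%.

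None of the 3 ligand genes held an SE. SHH and IHH had regions in D425 and HD-MB03 and in neither of the other lines. They are named, as are BTRC and KIF7, after their values were seen. DHH was below the G3-MB lines in UW228 at 4449, against 28369 (MB002), 9407 (D425) and 14240 (HD-MB03). Its best regions were closest to TUBA1B or KMT2D. Among 5 genes of ligand release, HHAT, which attaches palmitate to the ligand, held the SE of UW228 (rank 226). Its signal was 78846 there and 24250 (MB002), 11041 (D425) and 8696 (HD-MB03).

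Of 3 further receptors and co-receptors, GAS1, which helps bind the ligand, was the one outside the G3-MB range by at least 2-fold. It had 5784 in UW228, 414 in MB002, 943 in HD-MB03 and no region in D425. Of 8 genes of SMO and the cilium, EVC and EVC2, which act together at the base of the cilium and share their best region, were at 4920 each in UW228. In HD-MB03 they were at 1896 and 1547, and MB002 and D425 had no region. KIF3A, a motor of ciliary transport, had 2635 (MB002), 515 (D425), 4332 (HD-MB03) and no region in UW228, with CCNI2 closest to its best regions.

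Among 10 kinases and turnover factors of the GLI proteins, 5 were at least 2-fold above the G3-MB lines in UW228, beside the 20.5% of all genes with a region. The casein kinase gene CSNK1A1 had 29303 in UW228 and from 3554 to 5048 in the G3-MB lines, and GSK3B had 16634 against 224 to 429. The protein kinase A genes PRKACA and PRKACB had 7044 and 4725 in UW228, against at most 2710 and 668. The best regions of PRKACA were closest to C19orf67 or ASF1B, that of CSNK1A1 in UW228 and MB002 to ARHGEF37 and that of GSK3B in MB002 to NR1I2. The products of these 4 genes phosphorylate GLI proteins. The remaining gene of the 5, KIF7, had 1852 in UW228 and no region in the G3-MB lines. BTRC, the ubiquitin ligase subunit that recognizes the phosphorylated proteins, had SEs in MB002 (83413, rank 103) and D425 (60624, rank 205), 27665 in HD-MB03 and no region in UW228.

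Of 8 genes reported as GLI targets, UW228 was above the G3-MB lines for 3 and below for 2, beside 28.9% and 24.7% of the genes with a region in any line. MYCN, a driver of proliferation in the cerebellum, had 14466 (MB002), 334 (D425), 736 (HD-MB03) and no region in UW228. CCND2, a cyclin, had 7176, 8806 and 340 in the same order and again no region in UW228, and TIGAR was closest to its best region in MB002 and D425. BCL2 had 10338 in UW228 and at most 549 in the G3-MB lines, and FOXL1 had 4649 in UW228 and no region elsewhere.

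**Figure D5:**
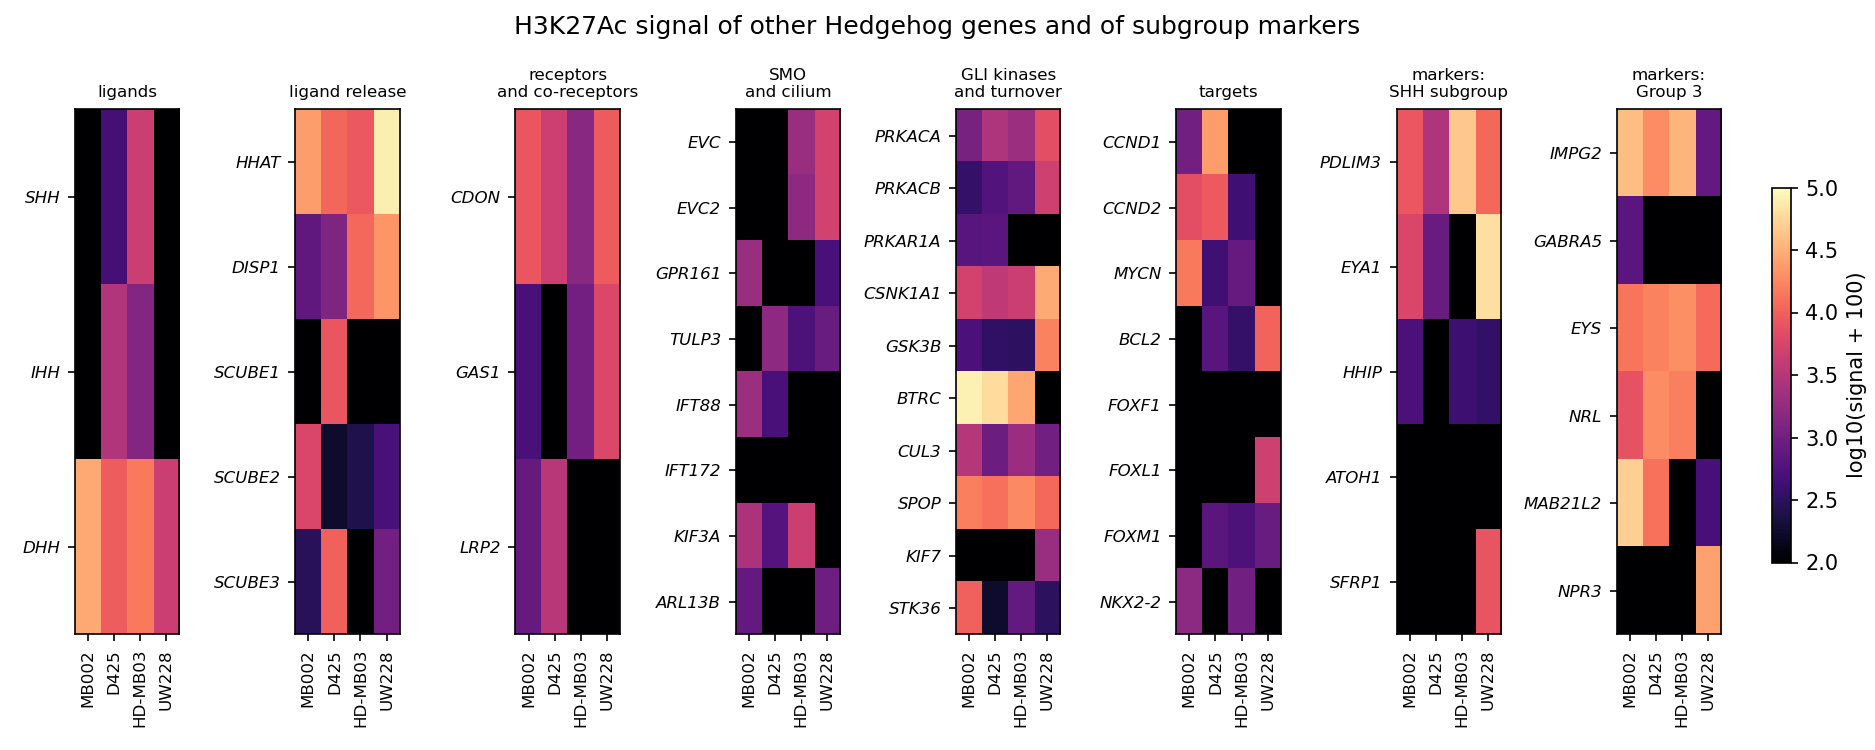
Signal of 37 other Hedgehog genes by role and of 11 subgroup marker genes in each line, as log10 of the signal plus 100, where black is no region. HHAT (78846) is the brightest of the pathway genes in UW228 and BTRC (83413) in MB002.

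For the 2 members with the best rank in UW228, the genes with the most similar signal over the 4 lines were sought among all protein-coding genes. The measure was the largest difference in log2 of the signal plus 100 over the 4 lines. SUFU was nearest to SEPTIN9 (0.23), TSPAN15 (0.35) and HPCAL1 (0.43). BOC was nearest to PLXDC2 (0.30), SLC1A2 (0.47) and CHRM3 (0.52).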

How the data were processed

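Each line had 1 H3K27Ac and 1 input library. The deposited signal of a region is reads per bp, scaled to mapped reads by the authors and multiplied by region length, with input not subtracted, and the deposited score is its ROSE rank, beside a column of SE calls. Alignment by the authors used GRCh38 and Bowtie2 2.3.0, and they used SAMtools 1.9, called peaks against input with MACS2 2.2.6, described peaks near promoters as left out, and stitched the rest with ROSE. Signal minus input was floored at 0, and ranks recomputed from it differed from the deposited ranks only among regions where input was at least as high as H3K27Ac, apart from ties. Genes and start sites were those of GENCODE 44 on GRCh38. The members and lists were chosen with earlier results of these data known. Named genes were the 9 members and, by role, up to 4 other genes with an SE or at least 2-fold outside the G3-MB range. SHH, IHH, BTRC and KIF7 were named beyond these. 1 gene of the fixed role lists is not reported here and is left out of their counts. Assignment, overlap, cutoff and motif steps were tested on simulated data (Python 3.11.15, numpy 2.4.6, pandas 2.3.3, scipy 1.17.1). Alternatives changed input correction, window, assignment, start site, scaling, SE cutoff and lines.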

Additional observations from a re-analysis of the deposited data

How the results depend on the processing

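No paired analysis was possible because each line has 1 library of a kind and no result comes from a test. Giving each region only to its closest gene left 1 SE member in HD-MB03 (PTCH1) and 0 in UW228, and 1 member below all G3-MB lines in UW228 (PTCH1), with SUFU added to those above. Dividing the signal by relative input density gave 1 SE member in D425 (GLI1), 2 in UW228 (SUFU and BOC) and 5 members above all G3-MB lines in UW228 (SUFU and HHIP added). Taking the top 500 regions gave 1 SE member in D425 (GLI1). Leaving out each G3-MB line in turn gave 3 to 5 members below, with 5 when D425 was left out (GLI2 and HHIP added). The shares over all genes under these alternatives are not given here. The log2 ratio of GLI2 was 1.49 per bp against -2.40 for the sum, with D425 counted as 0 in both. The cause of these shifts was not tested. PTCH1 was below all G3-MB lines in UW228, and GLI3 and SFRP1 above, under every alternative tried. In HD-MB03 the PTCH1 SE held under every alternative tried. At an overlap of at least 50% the shares of 33.3% fell to 26.7% (MB002), 13.3% (D425) and 20% (HD-MB03), where the shares over all UW228 regions were 12.8%, 16.1% and 8.91%. With no replicates and unknown depth, no error can be given for a signal.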
